A study of Mus musculus with 6 samples.

Results

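Transcripts of glycolysis and of genes induced by low oxygen were examined in the intestine of newborn mice of the inbred strain C57BL/6, treated for 5 days with NECA or with DMSO. The set held 32 genes chosen by name out of 54532 in the deposited tables: 17 of glucose entry, glycolysis and lactate handling, 4 of the hypoxia-inducible factor (HIF) system and 11 that low oxygen is known to induce. NECA is an adenosine analogue that activates several adenosine receptors, and DMSO is its solvent and the vehicle control. Each group had 3 libraries, and the title of the series names necrotizing enterocolitis, in which the bowel of newborns becomes inflamed and dies, and the suppressive function of myeloid-derived cells. The labels do not give the segment of bowel, the route or dose of NECA, or whether libraries came from separate animals, so p-values reflect library-to-library spread alone, some of it possibly technical.

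Glycolysis converts glucose to pyruvate in the cytosol, and lactate dehydrogenase and monocarboxylate transporters dispose of the pyruvate as lactate when mitochondria do not take it up. In oxygenated cells the prolyl hydroxylases Egln1 to Egln3 mark the HIF alpha subunits for degradation, and when oxygen is scarce the stabilised subunits bind a short DNA element and raise transcription of glycolytic enzymes, Vegfa, Bnip3 and the hydroxylases themselves. The villus epithelium lives at low oxygen next to the anaerobic lumen, and low oxygen also raises extracellular adenosine, the natural ligand of the receptors that NECA activates.

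The HIF element has a core of ACGTG or GCGTG. The 250 bases before the RefSeq transcription start (GRCm38.p6) of 4 members are shown, with matches to either core on either strand in capitals. Ldha and Pgk1 are members whose libraries did not overlap between the groups, and Hk2 and Vegfa are those, Gapdh aside, in which NECA replicate 2 lay farthest above and below the median of the other libraries.
Ldha, chr7:46845554-46845803, plus strand: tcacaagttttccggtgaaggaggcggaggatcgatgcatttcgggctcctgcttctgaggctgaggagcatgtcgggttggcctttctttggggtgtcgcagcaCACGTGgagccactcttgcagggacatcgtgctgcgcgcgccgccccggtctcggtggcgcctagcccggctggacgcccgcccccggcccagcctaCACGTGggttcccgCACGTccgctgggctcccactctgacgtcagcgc
Pgk1, chrX:106186850-106187099, plus strand: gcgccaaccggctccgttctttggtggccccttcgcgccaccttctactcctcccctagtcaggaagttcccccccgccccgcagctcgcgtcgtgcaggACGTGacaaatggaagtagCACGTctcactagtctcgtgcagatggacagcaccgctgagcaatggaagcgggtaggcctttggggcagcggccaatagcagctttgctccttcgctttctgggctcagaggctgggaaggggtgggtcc
Hk2, chr6:82774455-82774704, minus strand: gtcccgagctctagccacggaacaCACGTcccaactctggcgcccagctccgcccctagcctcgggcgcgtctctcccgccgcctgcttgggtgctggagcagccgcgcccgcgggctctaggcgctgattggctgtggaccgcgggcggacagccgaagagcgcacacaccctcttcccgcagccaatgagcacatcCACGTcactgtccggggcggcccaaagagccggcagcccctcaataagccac
Vegfa, chr17:46032378-46032627, minus strand: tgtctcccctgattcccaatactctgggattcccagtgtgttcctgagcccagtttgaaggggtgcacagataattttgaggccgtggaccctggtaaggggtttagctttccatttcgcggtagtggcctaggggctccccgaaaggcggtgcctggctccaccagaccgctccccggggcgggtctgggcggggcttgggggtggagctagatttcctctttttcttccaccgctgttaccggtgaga
Ldha had 3 separate matches, of which 2 fell within CACGTG, the E-box that other factors also bind. Pgk1 and Hk2 had 2 matches each, and Vegfa had 0 in this window, which says nothing of its distal elements. A window was found for 29 of the 32 members (Ero1l under its newer name Ero1a), and none for Epas1, Bnip3l and Ndrg1. At least 1 match was present in 22 of the 29 (75.9%), against 38.6% of the windows of 27025 genes. The ACGTG core was in 15 (51.7%), against 16.5% of all, and CACGTG in 4 of the 29, against 6.0% of all. The members were chosen by name from pathways that HIF is known to induce, so higher shares than in all genes are not an independent result. The member windows also held more G and C, with a median of 64.0% against 52.0%, and the part of base composition in these shares was not tested. Some of the 29 windows overlap annotated exons, over all 250 bases for Higd1a, 208 for Pkm and 193 for Aldoa. For genes with several RefSeq starts the most upstream was used. A match is a stretch of letters and not a measured binding site.

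The libraries held 15531996 to 18065078 counts. NECA replicate 2 stood apart from the others: its median correlation with them across genes was 0.944, against 0.971 to 0.986 for the rest. The marker lists used here were chosen with earlier results of these data known. Levels are in CPM, the count scaled to the size of the library with TMM factors. In NECA replicate 2 all 8 proximal bowel genes were at their lowest (summed level 1014 CPM against 19620 to 23127). All 8 distal genes (2907 against 266 to 710 CPM) and all 10 proliferation genes (1916 against 793 to 1038 CPM) were at their highest. All 7 smooth muscle genes were at their highest in DMSO replicate 2 (5872 CPM, against 2333 to 3070 in the other 5 libraries). Epithelial markers were present in every library, as the tissue label says. Their summed level was 10073 CPM in NECA replicate 2 and 10308 to 11648 CPM in the other libraries. Of these 9 markers 8 were higher in NECA, with a median log2 fold change of 0.25 and 0 past the test, and 7 were at their highest in NECA replicate 2, where Krt8 was at 2572 CPM against 883 to 1403 and Fabp2 at 603 CPM against 3318 to 4968. In whole tissue, fewer cells of a type and less RNA per cell cannot be told apart.

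All 32 genes passed the filter on low counts. In edgeR's quasi-likelihood test, adjusted by Benjamini-Hochberg over 15847 genes, 0 of the 32 passed the threshold of 0.05, as did 0 of all genes (0%), and the smallest adjusted p among the members was 0.738. At an unadjusted p under 0.05 there were 2 members, Ndrg1 and Slc16a3, against 5.48% of all genes. DESeq2 called 11 genes of all and 0 of the members, the smallest DESeq2 adjusted p being 0.640 for Ndrg1. In counts simulated with this spread, 100 genes were changed 2-fold and 100 were changed 4-fold. The test recovered 12% of the 2-fold and 80% of the 4-fold changes, with 12 false calls among 15847 genes. Most differences under 2-fold would therefore not be called. Of the members 17 were higher and 15 lower in NECA, with a median log2 fold change of 0.025, against -0.008 over all genes tested. The libraries of the groups did not overlap in 4 members, Ndrg1, Slc16a3, Ldha and Pgk1, against 13.7% of all genes. In all 4 NECA lay above, which was so in 6.49% of all genes, and in 0 members NECA lay wholly below, against 7.16%.

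On the deposited FPKM scale, which divides by transcript length and allows genes to be compared, Ldha was the most abundant member, at 303 to 447. It was followed by Tpi1 (182 to 224), Pgk1 (113 to 202), Eno1 (84.4 to 174), Aldoa (104 to 129) and Mif (91.9 to 126), whose ranges touch and give no firm order. Pkm (67.7 to 96.7) and Pgam1 (50.0 to 101) came next. The entry steps were lower, with Gpi1 at 31.5 to 49.0, Pfkl at 14.0 to 28.4, Slc2a1 at 3.52 to 14.8 and Hk1 at 2.93 to 3.96 FPKM. By mean FPKM the lowest members were Adm (1.37 to 2.35) and P4ha2 (0.743 to 1.25), although Gapdh was lower than both in 3 libraries, at 0.570 to 0.637.

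**Figure D1:**
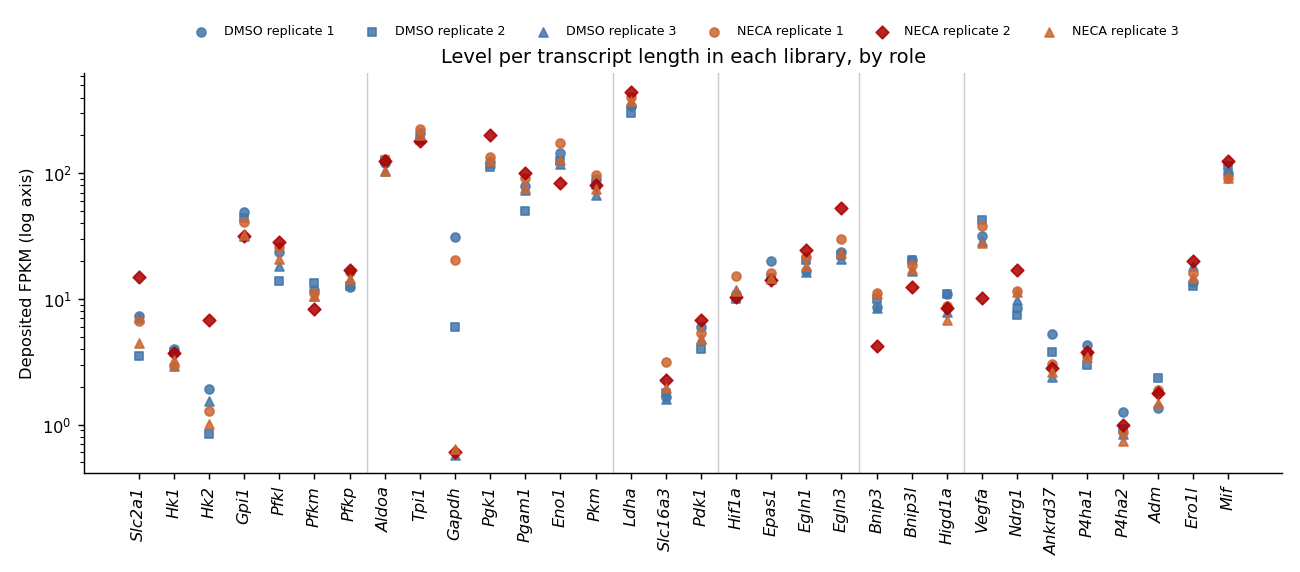
Deposited FPKM (log axis) of the 32 genes in each of the 6 libraries, ordered by role and separated by grey lines. Later glycolytic enzymes other than Gapdh lie at 50.0 FPKM or more, hexokinases at 6.79 or less, and Gapdh spreads from 0.570 to 31.0.

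The tissue carried other isoforms of several of these steps at higher levels. They stand on a list of 24 further glycolysis and pyruvate genes, and Pklr was singled out after its values were seen. Pklr, the liver and red cell pyruvate kinase, was at 88.8 to 206 FPKM. Hkdc1, a hexokinase-domain protein, was at 25.4 to 45.5 FPKM, above Hk1 and Hk2 in every library. Slc16a1, the monocarboxylate transporter MCT1, was at 32.1 to 52.7 FPKM, against 1.61 to 3.16 for Slc16a3. Their differences between the groups did not pass the test either: 0.25 (SE 0.32) for Pklr, 0.43 (SE 0.18) for Hkdc1 and -0.37 (SE 0.18) for Slc16a1 on the log2 scale, with edgeR adjusted p of 0.738 to 0.813.

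Among glucose entry and the first steps, 4 of 7 members were higher and 3 lower in NECA, with a median of 0.26 on the log2 scale. Slc2a1, the basal glucose transporter GLUT1, was at 25.7, 12.6 and 24.7 CPM with DMSO and 23.2, 52.5 and 15.8 CPM with NECA. NECA replicate 2 alone was high, and the other NECA libraries lay inside the DMSO range. The log2 fold change was 0.54 (SE 0.46) with all libraries and -0.11 (SE 0.33) without NECA replicate 2. Hk2, the inducible hexokinase, followed the same pattern at 11.6, 5.15 and 9.32 CPM with DMSO and 7.56, 41.0 and 6.09 CPM with NECA. NECA replicate 2 was 5.42 times the median of the other 5 libraries, the widest such ratio above 1 among the members. The log2 fold change of Hk2 was 1.07 (SE 0.72) with that library and -0.35 (SE 0.35) without it. In that library all 10 proliferation genes and all 8 distal bowel genes were also at their highest, and their part in the Slc2a1 and Hk2 values was not tested. Hk1, the constitutive hexokinase, was at 34.1, 33.1 and 25.4 CPM with DMSO and 24.8, 31.8 and 28.2 CPM with NECA, with groups that overlapped.

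Hk1 therefore made up 65.6% to 81.8% of the summed Hk1 and Hk2 FPKM in 5 libraries and 35.2% in NECA replicate 2. For phosphofructokinase, the committing step, Pfkl was the leading isoform in all 6 libraries, with 34.9% to 53.0% of the summed FPKM. Pfkm, the muscle isoform, had its largest share, 33.2%, in DMSO replicate 2, the library with the most smooth muscle transcripts, and its smallest, 15.4%, in NECA replicate 2. The part of smooth muscle in that share was not tested. Pfkm shares exons with Senp1 on the opposite strand, as does Pfkp with Pitrm1, and without a stated strand setting their reads cannot be told apart.

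**Figure D2:**
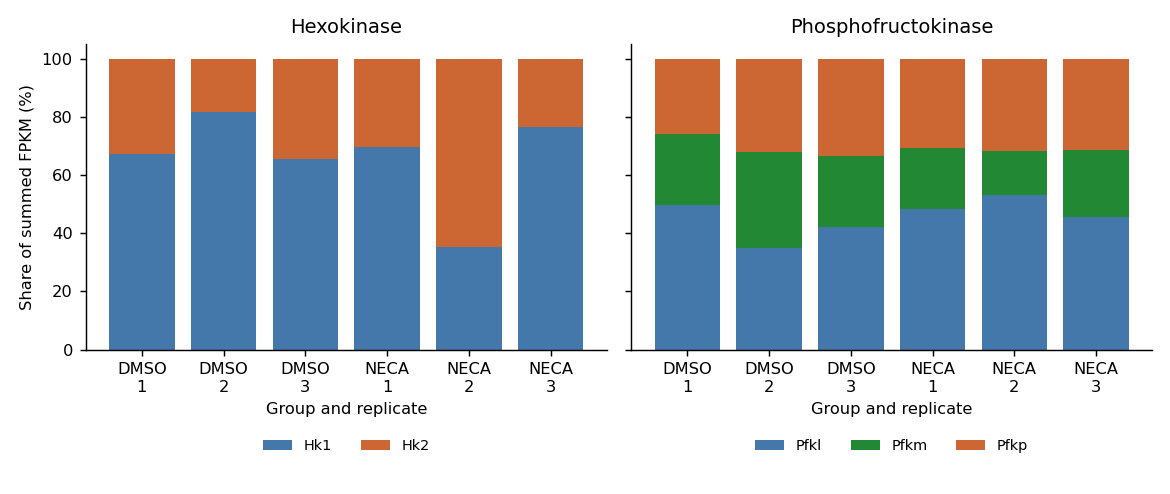
Share of summed deposited FPKM (%) held by each hexokinase (left) and phosphofructokinase (right) gene in each library, without replicates of a share. Hk2 exceeds Hk1 in NECA replicate 2 alone, where Hk1 holds 35.2%, and Pfkl leads in every library.

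Pfkl was at 160, 95.4 and 122 CPM with DMSO and 169.9, 192 and 140 CPM with NECA (log2 fold change 0.41, SE 0.22). Pfkp was at 168, 175 and 195 CPM with DMSO and 218, 230.0 and 194 CPM with NECA (0.26, SE 0.155). Both overlapped by a single library, DMSO replicate 1 for Pfkl and DMSO replicate 3 for Pfkp. Pfkm was at 39.4, 45.4 and 35.4 CPM with DMSO and 36.8, 27.9 and 35.2 CPM with NECA (-0.27, SE 0.17). Gpi1, the isomerase between hexokinase and phosphofructokinase, was at 319, 289.6 and 207 CPM with DMSO and 263, 205 and 210.1 CPM with NECA (-0.26, SE 0.21). Its lowest DMSO library lay below 2 NECA libraries.

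In later glycolysis, 5 of 7 members were higher and 2 lower, with a median of 0.039. Pgk1, the first enzyme of the pathway to make ATP (ENSMUSG00000062070, chromosome X, 106187100 to 106203699, GRCm38), was at 279.7, 259 and 275 CPM with DMSO and 299, 458 and 283 CPM with NECA. The groups did not overlap, but NECA replicates 1 and 3 exceeded the highest DMSO library by little. The log2 fold change was 0.35 (SE 0.22), and 0.10 without NECA replicate 2. Pgam1, the mutase that follows, was at 147, 93.4 and 135 CPM with DMSO and 166, 187 and 140.0 CPM with NECA (0.396, SE 0.21), with 1 DMSO library above NECA replicate 3. Tpi1, the triose phosphate isomerase, had nearly equal groups, at 585, 519.7 and 526 against 611, 507 and 559 CPM (0.039, SE 0.18). Aldoa, the general aldolase, ranged over 304 to 377 CPM with a log2 fold change of 0.012 (SE 0.18), and Pkm, the general pyruvate kinase, over 342 to 479.8 CPM with 0.068 (SE 0.19). Eno1, the general enolase, was at 794, 681 and 641 CPM with DMSO and 929, 459 and 685 CPM with NECA, so that the NECA group held both the highest and the lowest library (-0.030, SE 0.28; 0.20 without NECA replicate 2).

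Gapdh, the dehydrogenase of the same stretch and a common reference gene, did not vary like its neighbours. Its counts were 2318, 379 and 38 with DMSO and 1287, 51 and 46 with NECA, a 54.4-fold range in CPM, and both groups held high and low libraries. Replicate 1 was the highest library in both groups, and the labels do not say whether the numbers pair the samples. In the library with 38 Gapdh counts, Tpi1 had 8419 and Pgk1 had 4398. The neighbouring enzymes ranged over no more than 2.02-fold across all 6 libraries. BLASTN found 93 other annotated genes with at least 95% identity to a Gapdh transcript over at least 200 bases, 77 of which had counts. These copies together held 693, 488 and 524 counts with DMSO and 535, 493 and 486 with NECA, a far narrower range than Gapdh itself, and 43.9% of the counts of gene and copies. The treatment of reads that match several places is not given in the sources used here, so the Gapdh values are uncertain, and the part of read assignment in them was not tested. The fitted log2 fold change was -0.84 (SE 1.54), and -1.26 (SE 0.69) with the replicate number as a block. Omitting NECA replicate 1 gave -4.33 and omitting DMSO replicate 1 gave 1.09. Of the other members, copies held 6.78% of the counts for Eno1, mainly in Eno1b, 6.87% for Bnip3l and at most 1.81% for the rest.

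**Figure D3:**
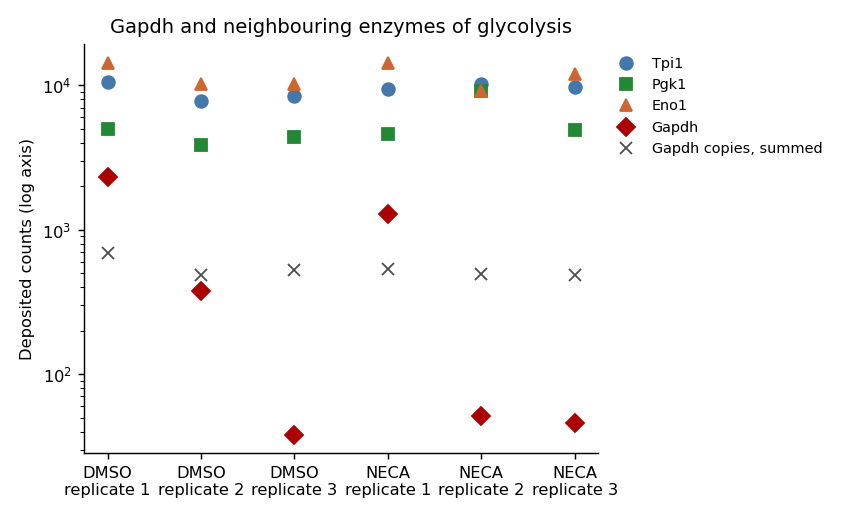
Deposited counts (log axis) of Gapdh, of its 93 near-identical copies summed and of 3 other glycolytic enzymes in each library. Gapdh runs from 38 to 2318 counts while the summed copies stay between 486 and 693.

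In pyruvate and lactate handling all members, 3 of 3, were higher in NECA, with a median of 0.28, as were 7764 of the 15847 genes tested. Further genes of this role, singled out after their values were seen, went both ways. On the log2 scale Ldhb was at -0.56, Slc16a1 at -0.37, Slc16a7 at -0.52 and Pdk2 at -0.49, against 0.46 for Pdk3 and 0.61 for Pdp2. Of the whole list of 24 further glycolysis and pyruvate genes, 12 were higher and 12 lower. Ldha, the subunit of lactate dehydrogenase that favours lactate formation (ENSMUSG00000063229, chromosome 7, 46841475 to 46855627), was at 1142, 1024 and 1206 CPM with DMSO and 1337, 1495 and 1257 CPM with NECA. Every NECA library lay above every DMSO library, with means of 1124 ± 92.3 and 1363 ± 121 CPM (SD, n = 3 per group). The log2 fold change was 0.28 (SE 0.21), and 0.21 without NECA replicate 2. Slc16a3, the lactate exporter MCT4 (ENSMUSG00000025161, chromosome 11, 120948480 to 120960868), was at 8.93, 9.64 and 8.63 CPM with DMSO and 16.7, 12.2 and 10.4 CPM with NECA. Here NECA replicate 1 was the highest library. The log2 fold change was 0.53 (SE 0.22, edgeR adjusted p = 0.738), while leaving out NECA replicate 2 gave 0.58 (SE 0.24) and leaving out NECA replicate 1 gave 0.32. Pdk1, the kinase that shuts pyruvate dehydrogenase, was at 47.3, 31.99 and 37.6 against 41.6, 53.6 and 37.6 CPM, with overlapping groups (0.18, SE 0.20).

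The HIF subunits and oxygen sensors were 3 higher and 1 lower in NECA. Hif1a, the widely expressed alpha subunit, was at 64.6, 60.5 and 69.8 CPM with DMSO and 88.7, 61.6 and 68.8 CPM with NECA, with NECA replicate 1 alone outside the DMSO range (0.17, SE 0.17). Epas1, which encodes HIF-2 alpha and is active in endothelium and in the control of iron uptake, was at 107, 79.2 and 77.6 against 85.2, 75.5 and 78.5 CPM (-0.14, SE 0.16). On the FPKM scale Epas1 exceeded Hif1a in all 6 libraries, Hif1a holding 35.3% to 48.4% of their sum.

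Egln3, a hydroxylase that HIF itself induces, was at 63.0, 61.2 and 56.3 CPM with DMSO and 79.8, 141 and 62.3 CPM with NECA. DMSO replicate 1 lay just above NECA replicate 3, so the groups overlapped by 1 library. The log2 fold change was 0.65 (SE 0.285) and did not pass the test, and it was 0.25 (SE 0.15) without NECA replicate 2. Egln1, the main hydroxylase of HIF-1 alpha, was at 60.2, 74.2 and 59.9 against 77.4, 89.3 and 66.1 CPM (0.26, SE 0.16). Egln1 was below Egln3 in FPKM in every library, with 41.4% to 47.3% of their sum in 5 libraries and 31.9% in NECA replicate 2.

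The mitochondrial members were all 3 lower in NECA (median -0.27), though with small differences, as were 8083 of the 15847 genes tested. Bnip3, a receptor for mitophagy, was at 19.9, 23.0 and 19.3 CPM with DMSO and 24.9, 9.62 and 24.9 CPM with NECA. NECA replicates 1 and 3 lay above all DMSO libraries and NECA replicate 2 below them, so the log2 fold change was -0.068 (SE 0.34) with that library and 0.27 (SE 0.15) without it. Bnip3l, its paralogue with a part in red cell maturation, was at 79.9, 81.0 and 65.5 against 71.5, 48.4 and 67.2 CPM (-0.27, SE 0.18). In NECA replicate 2, where both were lowest, all 6 tested red cell genes were lowest too (201 against 338 to 690 CPM summed), and mitochondrially encoded transcripts took 1.31% of counts, against 2.80% to 8.39%. The part of these in Bnip3 and Bnip3l was not tested. Higd1a, an inner membrane protein, was at 33.8, 34.1 and 24.1 against 26.4, 25.8 and 20.9 CPM (-0.33, SE 0.19), with DMSO replicate 3 inside the NECA range.

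Of the secreted, matrix and other hypoxia-induced genes, 2 of 8 were higher and 6 lower in NECA, with a median of -0.096. Ndrg1, a stress-responsive gene of differentiating epithelium (ENSMUSG00000005125, chromosome 15, 66929318 to 66969640), was at 56.8, 49.9 and 65.1 CPM with DMSO and 75.7, 113 and 74.5 CPM with NECA. All 3 NECA libraries lay above all 3 DMSO libraries, with means of 57.3 ± 7.66 and 87.7 ± 21.8 CPM (SD, n = 3 per group). Its log2 fold change was 0.61 (SE 0.20, unadjusted p = 0.0166, edgeR adjusted p = 0.738), the smallest p of the 32. Without NECA replicate 2 the difference was 0.395 (SE 0.15), and across the libraries left out in turn it ran from 0.395 to 0.72. Ndrg1, Ldha and Pgk1 were all highest in NECA replicate 2, as were 7 of 9 epithelial markers. The summed level of the 9 markers was lowest in that library, at 10073 CPM against 10308 to 11648. The 3 genes were lowest in DMSO replicate 2, where all 7 smooth muscle genes were at their highest. The part of these cell types in the 3 genes was not tested. Without DMSO replicate 2 the log2 fold changes were 0.525 for Ndrg1, 0.22 for Ldha and 0.32 for Pgk1.

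Vegfa, the angiogenic growth factor, was lowest in NECA replicate 2. It was at 136, 186 and 125 CPM with DMSO and 160.4, 44.2 and 120.5 CPM with NECA, so that 1 library was at 0.325 of the median of the other 5. Without that library the log2 fold change was -0.082, against -0.46 (SE 0.42) with it. In NECA replicate 2, 6 of 7 endothelial markers were also at their lowest (214 against 289.9 to 409 CPM summed), and their part in the Vegfa value was not tested. Ero1l, an endoplasmic reticulum oxidase, was at 72.5, 68.7 and 97.4 against 84.3, 108 and 78.1 CPM (0.18, SE 0.19).

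The remaining members of this role all had negative log2 fold changes. Mif, a cytokine with tautomerase activity, was at 76.2, 86.8 and 78.0 against 67.9, 94.7 and 69.0 CPM (-0.057, SE 0.17), with the NECA group holding both the highest and the lowest library. P4ha1 and P4ha2, catalytic subunits of collagen prolyl hydroxylase, had log2 fold changes of -0.025 (SE 0.18) and -0.22 (SE 0.25). P4ha1 was at 17.9, 12.5 and 15.1 against 14.7, 15.7 and 14.4 CPM, and P4ha2 at 7.87, 5.82 and 5.25 against 5.36, 6.28 and 4.65 CPM. P4ha1 held 76.5% to 82.4% of their summed FPKM in every library. Ankrd37, a small ankyrin-repeat gene, was at 8.20, 5.89 and 3.69 against 4.65, 4.39 and 4.02 CPM (-0.45, SE 0.32; -0.15 without DMSO replicate 1). It shares exons on the opposite strand with Ufsp2, which had 3760 counts in all libraries against 524, so its values are uncertain. Adm, the vasodilator adrenomedullin, had 40 to 58 counts per library and a log2 fold change of -0.13 (SE 0.30).

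**Figure D4:**
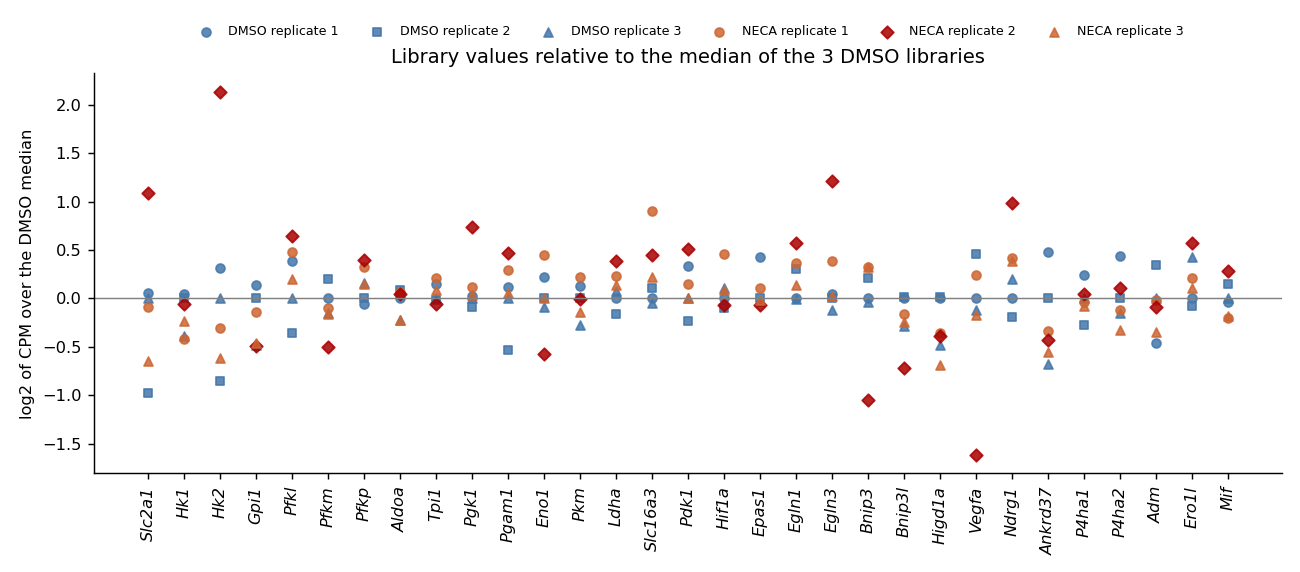
Level of each member except Gapdh in each library, as log2 of CPM (library-size scaled counts) over the median of the 3 DMSO libraries. NECA replicate 2 (dark red) is farthest above for Hk2 and Egln3 and farthest below for Vegfa and Bnip3.

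NECA replicate 2 was the highest library for 13 members (40.6%) and the lowest for 8 (25%), against 30.1% and 27.9% of all genes. The members at their highest there were Slc2a1, Hk2, Pfkl, Pfkp, Pgk1, Pgam1, Ldha, Pdk1, Egln1, Egln3, Ndrg1, Ero1l and Mif, and those at their lowest were Gpi1, Pfkm, Tpi1, Eno1, Vegfa, Epas1, Bnip3 and Bnip3l. DMSO replicate 2 was the lowest library for 11 members, against 25.1% of all genes, among them Ndrg1, Ldha and Pgk1. Genes that HIF is known to induce thus stood on both sides in NECA replicate 2. Without it, 16 members were higher and 16 lower in NECA, with a median of 0.000 and a range of -0.45 to 0.58, against a median of -0.017 over all 16121 genes then tested. The groups then did not overlap in 6 members, the same 4 with Bnip3 above and Mif below, against 23.4% of all genes. At an unadjusted p under 0.05 there were 2 members, Ndrg1 and Slc16a3, against 5.49% of all genes, and edgeR called 0 (smallest adjusted p 0.848).

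**Figure D5:**
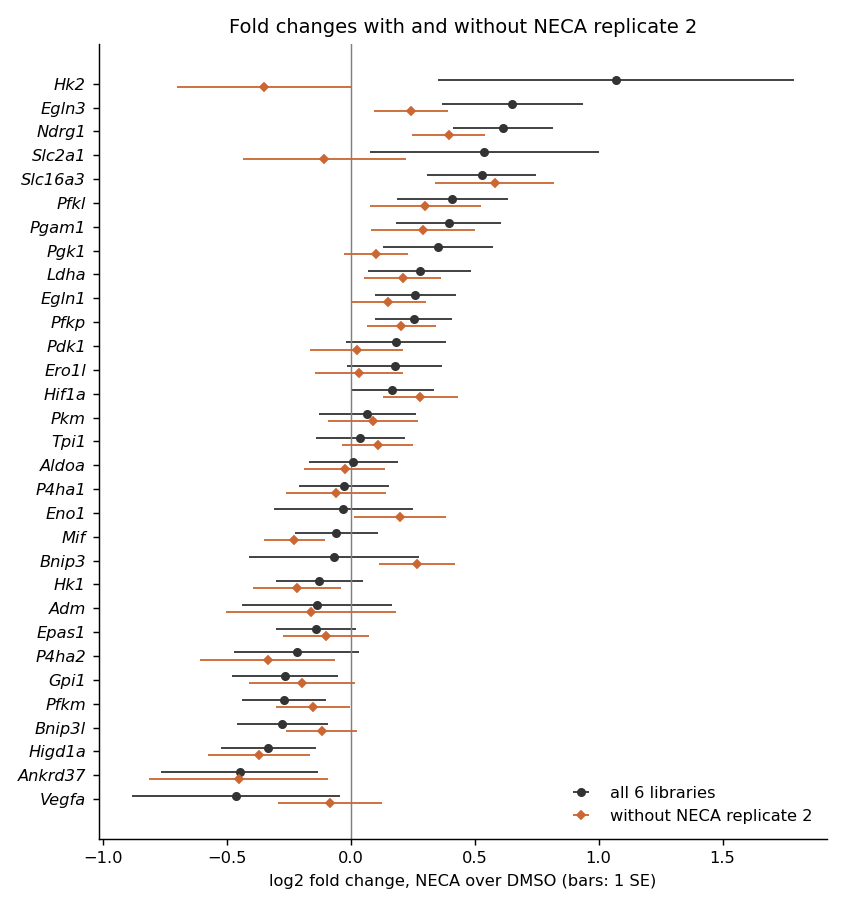
Log2 fold change of NECA over DMSO for each member except Gapdh, with bars of 1 SE, from all 6 libraries (circles) and without NECA replicate 2 (diamonds). Hk2, Slc2a1, Eno1, Bnip3 and Aldoa change sign, while Slc16a3 and Ndrg1 stay at 0.395 or more in both fits.

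Other genes of the same pathways also held no gene past the threshold. Of the 24 further glycolysis and pyruvate genes, 12 were higher and 12 lower in NECA (median -0.014), and 0 passed the test. Pdp2, a phosphatase that reactivates pyruvate dehydrogenase, was at 19.8, 22.8 and 24.3 CPM with DMSO and 33.0, 36.4 and 32.4 CPM with NECA, with no overlap (0.61, SE 0.15). Hkdc1, Pfkfb2 and Tigar also lay wholly above, and Slc16a1 and its relative Slc16a7 (-0.52, SE 0.28) wholly below. That made 4 of the 24 above and 2 below, against 6.49% and 7.16% of all genes. Of 14 further HIF regulators 9 were higher and 5 lower (median 0.069), and 0 passed. Here 2, Arnt2 and Egln2, lay wholly above and 0 wholly below, against the same shares of all genes. Arnt2, a partner subunit of the HIF family, was at 8.76, 10.4 and 14.7 CPM with DMSO and 25.9, 21.4 and 21.4 CPM with NECA (1.02, SE 0.225). Egln2, the remaining hydroxylase, was at 92.4 ± 11.6 and 115 ± 12.4 CPM (SD, n = 3 per group; 0.31, SE 0.16), with no overlap. Crebbp, a coactivator of HIF, was at 44.5, 56.6 and 39.3 CPM with DMSO and 40.1, 33.4 and 32.8 CPM with NECA (-0.40, SE 0.18). Os9, a lectin of the endoplasmic reticulum, was at 256, 304 and 287 against 254, 138 and 269.6 CPM (-0.36, SE 0.26), with NECA replicate 2 lowest.

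A list of 34 further hypoxia-induced genes, 3 of them shared with the glycolysis list, had 33 tested members. They were 10 higher, 22 lower and 1, Fam162a, at 0.00, with a median of -0.12, and 0 passed the test. Car12, a carbonic anhydrase, was at 14.3, 13.4 and 19.6 CPM with DMSO and 29.1, 40.8 and 24.1 CPM with NECA (0.99, SE 0.25). Stc2, a secreted glycoprotein of calcium and phosphate balance, was at 15.2, 8.63 and 26.0 against 26.6, 29.7 and 30.5 CPM (0.80, SE 0.35). Both lay wholly above DMSO, by a narrow margin for Stc2. Of the 33 genes, 2 lay wholly above and 2 wholly below, against 6.49% and 7.16% of all genes. Lox, the collagen crosslinking oxidase, was at 35.9, 29.0 and 27.0 against 22.4, 18.2 and 20.6 CPM and lay wholly below (-0.59, SE 0.17). Cxcr4, a chemokine receptor, was at 7.20, 7.56 and 3.69 against 4.07, 2.34 and 3.39 CPM (-0.92, SE 0.36), with DMSO replicate 3 inside the NECA range. In NECA replicate 2, 17 of these 33 genes (51.5%) were at their lowest and 5 (15.2%) at their highest. Of all genes 27.9% were at their lowest there and 30.1% at their highest.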

How the data were processed

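RNA was measured in 3 DMSO and 3 NECA libraries of newborn mouse intestine. Per the labels' protocols, SMARTer cDNA was PCR-amplified, fragmented enzymatically and read from both ends on an Illumina instrument. The authors deposited, per gene and library, an unnormalized count and an FPKM value, per the file headers. The submitters' processing notes name HISAT, StringTie and edgeR and the builds mm10 and GRCm38; their versions, the strand setting and the handling of multiply matching reads were "not given in the sources used here".

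Members were read by gene name, and of 2 rows named Aldoa the one with more counts was kept. The filterByExpr function (edgeR 4.0.16, at least 10 counts and 15 in total) kept 15847 genes, which received TMM factors and entered glmQLFit and glmQLFTest in R 4.3.3, NECA against DMSO, without covariates, on all genes at a threshold of 0.05. Levels are TMM-scaled CPM; FPKM served only to compare genes. Copies were found with BLASTN 2.17.0 among GENCODE M21 transcripts, promoters taken from RefSeq (GRCm38.p6). Per-library values were given for members with groups that did not overlap, the 5 with the smallest p in each direction, the most abundant of each role and isoforms, and from each other list the 2 with the smallest p per direction; Slc2a1, Gapdh, Eno1, Vegfa, Pdk1, Ero1l and Pklr were added after their values were seen. The members and lists were chosen with earlier results of these data known. Alternatives were DESeq2 and its size factors, other filters on low counts, a replicate block, each library left out and copies summed into members. One gene is not reported here. The scripts were tested on simulated counts.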

Additional observations from a re-analysis of the deposited data

How the results depend on the processing

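Of the 32 members, 20 kept the sign of their log2 fold change under the 12 alternatives in which they were tested, and in no alternative did a member pass the threshold. Leaving out each library in turn gave ranges that crossed 0 for the other 12: Gapdh -4.33 to 1.09, Hk2 -0.35 to 1.49, Slc2a1 -0.11 to 0.85, Eno1 -0.30 to 0.20, Bnip3 -0.27 to 0.27, Adm -0.33 to 0.072, Mif -0.23 to 0.029, Epas1 -0.22 to 0.016, P4ha1 -0.14 to 0.099, Aldoa -0.070 to 0.10, Pkm -0.034 to 0.15 and Tpi1 -0.027 to 0.11. With the filter at 5 CPM in 3 libraries Aldoa was at -0.009, and Ankrd37 and Adm were not tested. The median of the members ran from -0.029 to 0.10 over these library omissions. The count of genes called was 0 with all libraries, 2 without a filter on low counts and 11 with DESeq2; the cause was not tested. With the replicate block it was 0, and the median of the members was 0.024. Deviations from the group mean correlated at 0.038, -0.19 and -0.048 between libraries of the same number. Between libraries of different numbers they ran from -0.344 to 0.263. With 3 libraries per group these values cannot show whether the numbers pair the samples, and the labels do not say. Summing the near-identical copies into each member, an alternative added after seeing the data, gave 0 calls, a median of 0.030 and a Gapdh value of -0.58. Depth of 15531996 to 18065078 counts leaves wide counting error in Adm, at 40 to 58 counts per library. The same holds for Gapdh in the libraries where it had 38, 51 and 46. Ankrd37 (59 to 147) and P4ha2 (81 to 141) also had few counts.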
